A study of Homo sapiens with 8 samples.

Results

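The core genes of the Hedgehog pathway were followed in D283-OMO cells before and after induction of OMOMYC. They are 9 genes of the 60668 listed per library, chosen by name: the transcription factors GLI1, GLI2 and GLI3, the receptor PTCH1, the signal transducer SMO, the GLI inhibitor SUFU, the ligand-binding decoy HHIP, and the co-receptors BOC and GAS1. The choice is a list of names and has no threshold on a measured value, although earlier results of these data were known when it was made. D283-OMO is the D283 MED medulloblastoma line transduced with a lentivirus that carries a doxycycline (DOX)-inducible, Flag-tagged OMOMYC transgene and selected with Hygromycin B. OMOMYC is a dominant-negative mini-protein derived from MYC. Both groups carry the transgene: 4 libraries came from untreated cells and 4 from cells given 0.25 µg/mL DOX for 72 h, and all 8 hold polyA+ RNA. A DOX-treated line without the transgene was not analysed here, so effects of DOX and of OMOMYC cannot be told apart. Whether the transduced line is 1 clone is not given in the sources used here.

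Hedgehog ligands bind PTCH1, which otherwise holds SMO inactive. Active SMO gathers in the primary cilium and, through SUFU and protein kinase A, decides whether the GLI proteins act as activators or are cut into repressors. GLI1 acts as an activator and is itself a standard transcriptional readout of the pathway, GLI2 is a main activator, and GLI3 is best known in its repressor form. PTCH1 and HHIP are also targets of GLI, by which the pathway restrains itself. In the cerebellum, Sonic hedgehog drives the growth of granule neuron progenitors, and the SHH subgroup of medulloblastoma is named for it, whereas Group 3 tumours are known for high MYC.

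Total expected counts, the reads that RSEM assigned to genes, ranged from 46592947 to 54020506 in untreated libraries and from 38390696 to 49249167 in DOX-treated ones. Levels are CPM, the usual depth-normalised counts, with TMM factors of edgeR in the library sizes, and 3 counts, taken as the limit of detection, corresponded to 0.0581 to 0.0748 CPM for counting error alone. Untreated replicate 3 stood apart from the other untreated libraries, with Pearson's r of 0.9903 to 0.9922 across genes against at least 0.9947 for every other pair within a group. MYC RNA, which includes any reads from the transgene, was 939 ± 75.6 CPM (SD, n = 4) untreated and 1120 ± 56.8 CPM (SD, n = 4) with DOX. The MYC targets CAD and NCL had log2FC of -0.48 (standard error 0.05) and -0.44 (standard error 0.04). The median absolute log2FC of all genes tested was 0.43, so changes of this size were common and do not set these targets apart.

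Promoter sequences of RefSeq on GRCh38.p14, from 250 bases before to 50 bases after a start site, were found for 7 of the 9 genes, without GLI1 and GLI3. They are shown because the members include both the GLI factors and genes known to be bound by them. The GLI binding site GACCACCCA, searched on both strands, was in a promoter of PTCH1 and in 0.236% of 35116 promoters of the same length. Its inner part CCACCCA was in promoters of PTCH1 and GLI2 and in 9.19% of all promoters. CACGTG, the E-box that MYC is known to bind, was in the promoters of 0 members and in 7.26% of all promoters. A member counts if any of its promoters holds a match, while the shares are per promoter. With so few members, the 0 is not a result about them. The 30 bases around each match are given 5′ to 3′ on the strand of the gene, with the match in capitals, which here reads as the reverse complement of the motif.

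PTCH1: gttgcctaccTGGGTGGTCtctctactttg

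GLI2: ttccttggtgcTGGGTGGggagagtccctg

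The PTCH1 stretch is chr9:95509419-95509448 on the minus strand, and its match begins 172 bases before 1 of several RefSeq start sites, at an internal start, so that in GENCODE 29 it lies within an intron of the longer PTCH1 transcripts. The GLI2 stretch is chr2:120735693-120735722 on the plus strand, begins its match 164 bases before a RefSeq start site and lies within an intron of 2 GLI2 transcripts that start upstream. A match of letters is a description of these windows, and no binding was measured.

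Among the core genes, GLI3 rose 4.04-fold with DOX, while GLI1 fell 3-fold and BOC, GLI2 and PTCH1 fell 1.74- to 2.08-fold. SUFU rose 1.30-fold, and SMO changed least. Of the 9 genes, 7 passed the filter of more than 1 CPM in at least 4 libraries and entered the quasi-likelihood test of edgeR, in which p-values were adjusted by Benjamini-Hochberg over 15222 genes. At an adjusted p under 0.05, GLI3, SUFU and SMO were called higher with DOX and GLI1, GLI2, PTCH1 and BOC lower. Most genes changed in these cells: 76.6% of those tested were called, 38.5% higher and 38.1% lower, so a call by itself does not set the members apart. In bulk RNA, fewer cells that express a gene and less RNA per cell cannot be told apart. The absolute log2FC had a median of 0.87 over the 7 members and of 0.43 over all genes tested. Absolute log2FC above 1 was reached by GLI3, GLI1 and BOC among the members and by 20.9% of all genes tested, 11.0% higher and 9.81% lower. The groups did not overlap for 6 of the 7 members tested, and for 71.7% of all genes tested.

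**Figure D1:**
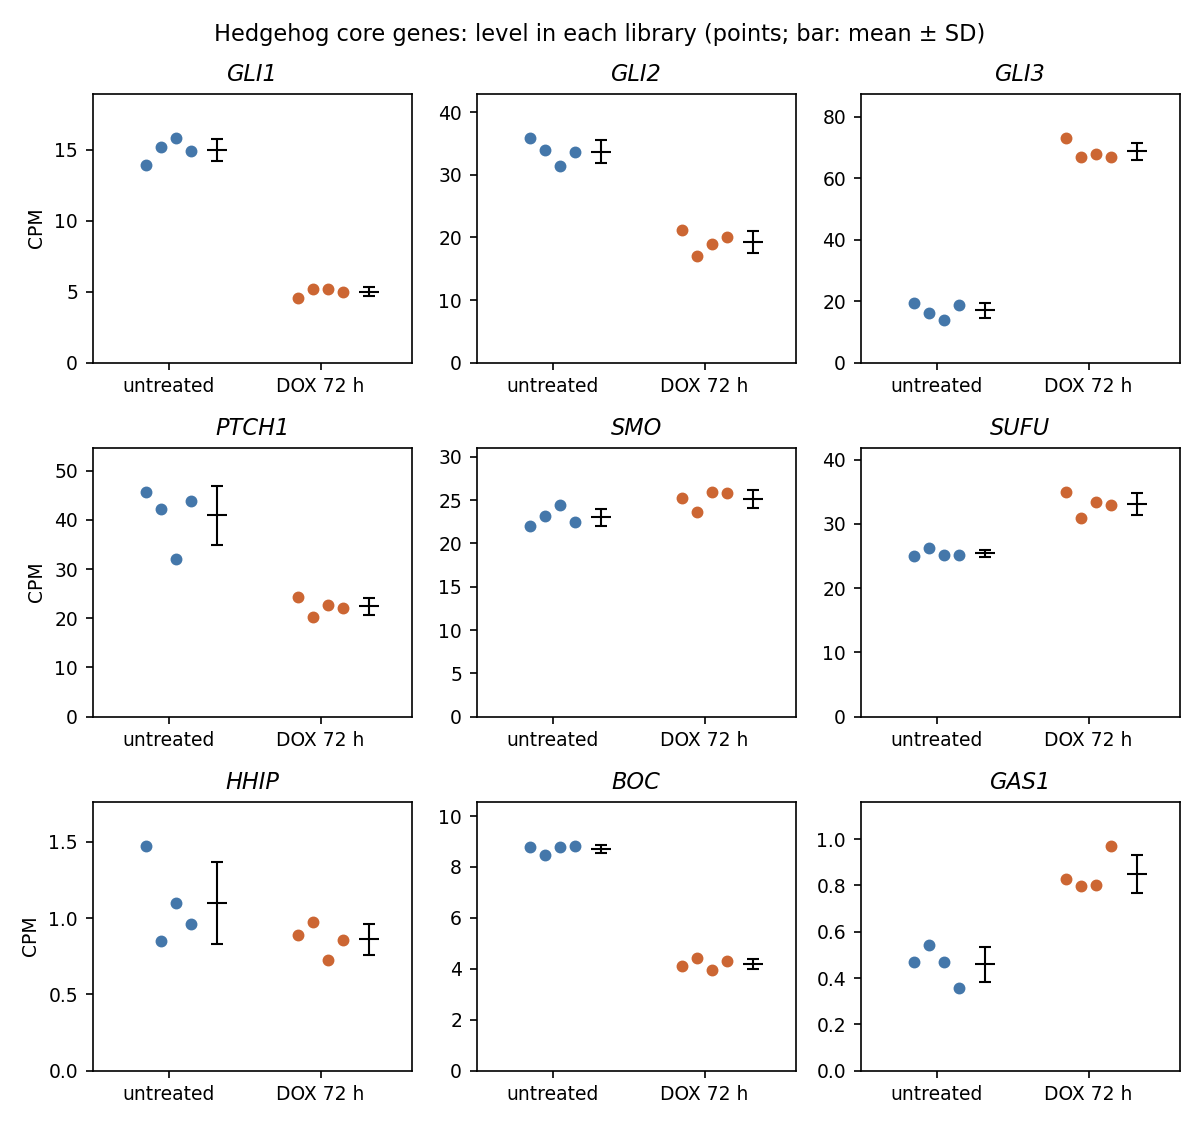
Level of each Hedgehog core gene in CPM (y axes start at 0 and differ between panels) in the 4 untreated libraries (blue) and the 4 libraries with 72 h of DOX (orange); points are libraries and bars give the mean ± SD. GLI1 lies at 13.9 to 15.8 CPM untreated and at 4.53 to 5.22 CPM with DOX, while GLI3 goes from 14.0 to 19.3 up to 67.0 to 72.9 CPM.

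The receptor and its partner moved unequally. PTCH1 (ENSG00000185920.15, chr9:95442980-95517057, minus strand), the ligand receptor, was at 45.6, 42.2, 32 and 43.8 CPM in untreated replicates 1 to 4 and at 24.4, 20.2, 22.7 and 22.1 CPM with DOX. Untreated replicate 3 was the lowest of its group, yet above every DOX-treated library. The log2FC of PTCH1 was -0.87 (standard error 0.10, edgeR adjusted p = 9.21e-06), and without untreated replicate 3 it was -0.97. PTCH1 shares 711 exonic bases with the antisense gene AL161729.1, which was at 1.90 ± 0.189 CPM (SD, n = 4) untreated and 1.35 ± 0.22 CPM (SD, n = 4) with DOX. SMO (ENSG00000128602.11, chr7:129188872-129213545, plus strand), the transducer that PTCH1 restrains, was at 22, 23.2, 24.4 and 22.5 CPM untreated and at 25.2, 23.6, 25.9 and 25.8 CPM with DOX. DOX replicate 2 lay below untreated replicate 3, so the groups overlapped. The log2FC of SMO was 0.13 (standard error 0.05, edgeR adjusted p = 0.041), and in 10 of 16 alternative fits the adjusted p rose above 0.05, up to 0.236. The 95% interval of this log2FC was 0.01 to 0.24.

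The 3 GLI factors went in different directions. GLI1 (ENSG00000111087.10, chr12:57460135-57472262, plus strand), the activator and pathway readout, was at 13.9, 15.2, 15.8 and 14.9 CPM untreated and at 4.53, 5.21, 5.22 and 5.0 CPM with DOX. Every DOX-treated library stood far below every untreated one, and the log2FC was -1.58 (standard error 0.07, edgeR adjusted p = 1.98e-09). Among genes tested, GLI1 ranked 702 by the size of its fall.

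GLI2 (ENSG00000074047.21, chr2:120735623-120992653, plus strand), the other activator, was at 35.8, 34.0, 31.4 and 33.6 CPM untreated and at 21.1, 17.1, 19.0 and 20.1 CPM with DOX. Its groups did not overlap either, with a log2FC of -0.80 (standard error 0.07, edgeR adjusted p = 5.9e-07).

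GLI3 (ENSG00000106571.14, chr7:41960950-42237870, minus strand), the main repressor, was at 19.3, 16.0, 14.0 and 18.8 CPM untreated and at 72.9, 67.0, 67.9 and 67.0 CPM with DOX. DOX replicate 1 was the highest and the other DOX-treated libraries lay within 1 CPM of each other. The log2FC was 2.01 (standard error 0.09, edgeR adjusted p = 1.85e-09), with a 95% interval of 1.82 to 2.21. GLI3 was the only member past the thresholds in the methods of the study, an FDR under 0.001 with an absolute log2FC above 2. These thresholds were passed by 7.12% of all genes tested, 4.38% higher and 2.75% lower. GLI3 passed by a narrow margin: without untreated replicate 2, untreated replicate 3 or DOX replicate 1 its log2FC was 1.98, 1.93 and 1.98, and no member passed. The rise itself kept its direction and an adjusted p under 0.05 in all 16 alternative fits.

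**Figure D2:**
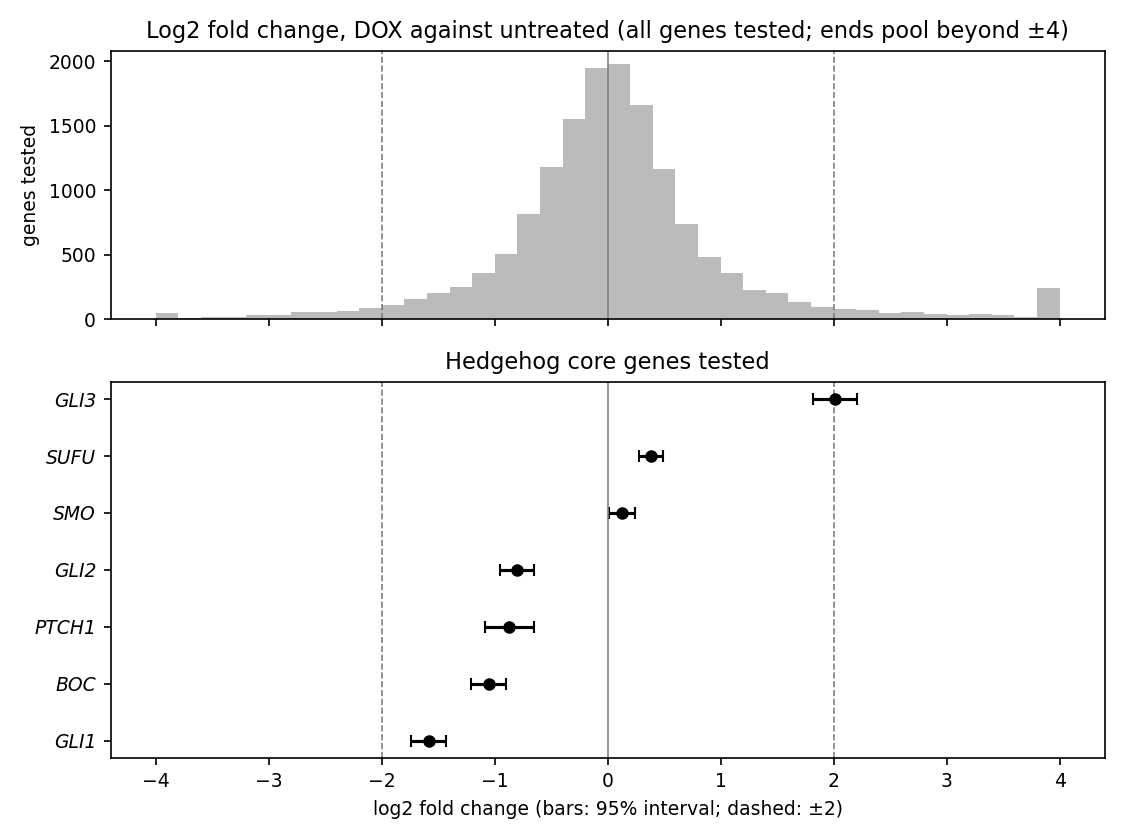
Top, number of genes tested (y axis) by log2 fold change of DOX against untreated (x axis); bottom, log2 fold change of the 7 core genes tested, with bars for the 95% interval and dashed lines at ±2. GLI3 lies at 2.01, on the upper line, and GLI1 at -1.58 is the lowest member.

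The makeup of the GLI transcripts was compared within libraries, which removes any scaling between them. Counts of each gene were divided by its merged exon length in GENCODE 29 and expressed as a percentage of the 3 GLI genes. This ratio was chosen after the levels had been seen, and no test is given. GLI3 made up 17.7, 15.1, 13.7 and 17.4% in the untreated libraries and 62.8, 63.2, 61.8 and 60.9% with DOX. GLI1 went from 36.8% ± 2.94 (SD, n = 4) to 11.8% ± 1.14 (SD, n = 4), and GLI2 from 47.3% ± 1.41 (SD, n = 4) to 26.1% ± 1.52 (SD, n = 4). GLI3 was thus the rarest of the GLI transcripts in untreated cells and the most abundant with DOX. For each count of GLI1 there were 1.15 ± 0.219 (SD, n = 4) counts of GLI3 untreated and 13.8 ± 1.52 (SD, n = 4) with DOX. Transcript amounts do not tell activator from repressor forms of the GLI proteins, which arise by cleavage.

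**Figure D3:**
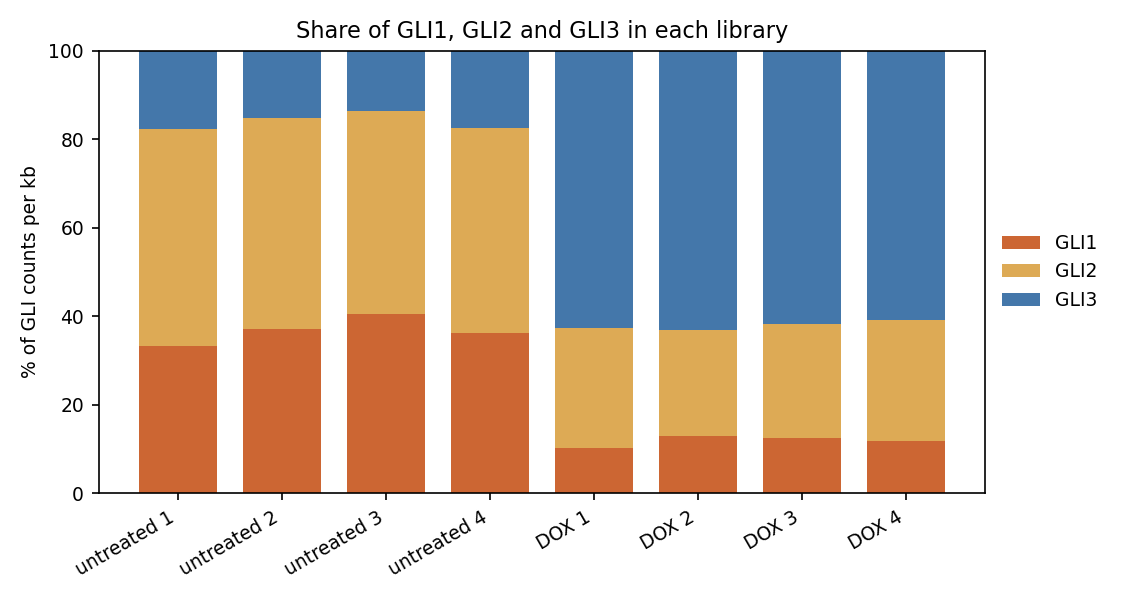
Percentage of GLI counts per kb of merged exon (y axis) that came from GLI1, GLI2 and GLI3 in each of the 8 libraries (stacked bars). GLI3 takes 13.7 to 17.7% of each untreated bar and 60.9 to 63.2% of each DOX bar.

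SUFU (ENSG00000107882.11, chr10:102503987-102633535, plus strand), which binds GLI proteins and holds them back, was at 25.0, 26.2, 25.1 and 25.1 CPM untreated and at 34.9, 30.9, 33.4 and 33.0 CPM with DOX. The rise was small but larger than the spread of both groups, with a log2FC of 0.38 (standard error 0.05, edgeR adjusted p = 1.95e-05). Counts of SUFU per count of GLI1 went from 1.70 ± 0.0846 (SD, n = 4) to 6.66 ± 0.748 (SD, n = 4), and counts of SMO per count of PTCH1 from 0.577 ± 0.125 (SD, n = 4) to 1.13 ± 0.0665 (SD, n = 4). Neither ratio overlapped between the groups. Both were chosen after their parts had been seen and are given without a test.

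HHIP, BOC and GAS1 meet the ligand at the cell surface. BOC (ENSG00000144857.14, chr3:113211003-113287459, plus strand), a co-receptor, was at 8.77, 8.48, 8.80 and 8.81 CPM untreated and at 4.10, 4.41, 3.97 and 4.31 CPM with DOX. The libraries of each group were close together and far from the other group, with a log2FC of -1.05 (standard error 0.07, edgeR adjusted p = 5.27e-08). BOC shares 513 exonic bases with CFAP44 on the opposite strand. CFAP44 was at 12.7 ± 1.70 CPM (SD, n = 4) untreated and 12.1 ± 0.572 CPM (SD, n = 4) with DOX, and whether the counting used strand is not given in the sources used here.

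The other ligand-binding members were near the limit of the filter and were not tested with the rest. HHIP (ENSG00000164161.10, chr4:144646021-144745271, plus strand), a decoy for the ligand, was at 1.47, 0.851, 1.10 and 0.964 CPM untreated and at 0.887, 0.972, 0.723 and 0.859 CPM with DOX. The groups overlapped, with a difference in mean log2(CPM + 0.1) of -0.30 (two-sided exact permutation test over 70 divisions of the libraries, p = 0.2). HHIP shares 178 exonic bases with HHIP-AS1 on the opposite strand, which was at 1.48 ± 0.156 CPM (SD, n = 4) untreated and 2.03 ± 0.201 CPM (SD, n = 4) with DOX.

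GAS1 (ENSG00000180447.7, chr9:86944363-86947189, minus strand), a co-receptor, was at 0.469, 0.542, 0.468 and 0.359 CPM untreated and at 0.828, 0.797, 0.802 and 0.969 CPM with DOX. The groups did not overlap, but these levels rest on 16 to 44 counts per library. The difference in mean log2(CPM + 0.1) was 0.77 (p = 0.0286 by the same exact permutation test, which cannot give a smaller p with 4 libraries a group). Without the filter on low counts, edgeR gave a log2FC of 0.85 for GAS1 (standard error 0.22, adjusted p = 0.00221) and of -0.38 for HHIP (standard error 0.20, adjusted p = 0.137).

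Per kilobase of merged exon, SMO was the most abundant member in untreated cells at 5.34 ± 0.233 CPM per kb (SD, n = 4), followed by GLI2 at 4.59, SUFU at 3.69, GLI1 at 3.56, PTCH1 at 2.46, GLI3 at 1.55, BOC at 0.844, GAS1 at 0.162 and HHIP at 0.0907. Of these neighbours, SUFU and GLI1 overlapped between libraries. With DOX the order was GLI3 at 6.27 ± 0.259 CPM per kb (SD, n = 4), SMO at 5.82, SUFU at 4.82, GLI2 at 2.63, PTCH1 at 1.35, GLI1 at 1.19, BOC at 0.406, GAS1 at 0.300 and HHIP at 0.0712. There, PTCH1 and GLI1 overlapped. GLI3 thus went from 6th to 1st place and GLI1 from 4th to 6th. With the longest transcript as length, SUFU and GLI2 changed places in untreated cells, where their libraries then overlapped, and GLI3 kept its places. By that length GLI1 and PTCH1 also overlapped in untreated cells, as did GAS1 and HHIP. With DOX, SMO and SUFU then overlapped, while PTCH1 and GLI1 no longer did.

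The genes whose levels followed GLI3 most closely over the 8 libraries, by Pearson's r of log2(CPM + 0.1), were ELK3 (r = 0.9994), WIPF1 (r = 0.9993) and ZNF275 (r = 0.9990). ELK3, an ETS transcription factor, went from 6.43 ± 0.446 to 14.4 ± 0.341 CPM (SD, n = 4 each). WIPF1, a regulator of the actin cytoskeleton, went from 10.1 ± 1.25 to 31.6 ± 1.25 CPM (SD, n = 4 each). The zinc finger gene ZNF275 went from 15.5 ± 1.11 to 33.2 ± 0.81 CPM (SD, n = 4 each). With 2 groups of libraries, such an r mostly reflects the step between them.

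The ligands themselves were nearly silent in both groups. SHH, the ligand for which the tumour subgroup is named, had at most 2 counts in any library and stayed under the limit of detection. IHH had 1 to 6 counts untreated and 0 to 3 with DOX. DHH had up to 8 counts untreated and 4 to 21 with DOX, with overlapping groups. None of the ligands passed the filter, and two-sided exact permutation tests gave p = 0.343 for IHH and p = 0.229 for DHH.

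The rest of the pathway was described by 53 genes in lists by role, the ligands included, of which 41 were tested. Of these, 21 were higher with DOX, 17 were lower and 3 were not called, and 92.7% of those tested were called against the 76.6% of all genes. Their median absolute log2FC was 0.54. Among the 21 higher genes, SCUBE3 and SFRP1 passed the filter through their DOX-treated libraries, so these calls could hardly have come out lower. The lists were chosen with earlier results of these data known.

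Of 3 other receptors and co-receptors, 2 were tested, 1 higher and 1 lower. CDON, the co-receptor most like BOC, was at 112, 114, 85.7 and 113 CPM untreated and at 55.4, 53.4, 51.9 and 49.4 CPM with DOX, a log2FC of -1.01 (standard error 0.09, edgeR adjusted p = 5.53e-07). CDON was lowest among the untreated libraries in replicate 3, as were PTCH1, GLI2 and GLI3, while GLI1 and SMO were highest there. That library stood apart across genes. The groups of CDON and of PTCH1 did not overlap. PTCH1, BOC and CDON were thus lower with DOX. The co-receptor GAS1, under the filter, went the other way, with a difference in mean log2(CPM + 0.1) of 0.77. The other gene tested in this list, GPC3, a glypican that competes for the ligand, was higher (log2FC 0.77) and is named after its value was seen. LRP2 stayed at or under 3 counts in every library.

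Of 6 genes for ligand maturation and release, 4 were tested, 3 higher and 1 lower. SCUBE3, which helps free the ligand from the membrane, went from 0.973 ± 0.234 to 2.10 ± 0.319 CPM (SD, n = 4 each). Among its untreated libraries, only replicate 1, at 1.31 CPM, exceeded 1 CPM. SCUBE3 thus passed the filter through its DOX-treated libraries, and its test could hardly have come out lower. The 18 genes listed as cytoplasmic regulators include kinases, ubiquitin ligase parts and adaptors between SMO and GLI. All were tested: 11 were higher, 4 lower and 3 not called, with a median log2FC of 0.24 and a largest of 0.73. The 3 not called were GPR161, CSNK1E and CUL3, and the 4 lower ones were BTRC, ULK3, DYRK2 and ARRB2. These 7 are named for the counts they make up, after their values were seen. Among the 11 higher genes, PRKACA and PRKACB, catalytic subunits of the kinase that primes GLI proteins for cleavage, had log2FC of 0.54 and 0.36. PRKAR1A, a regulatory subunit of that kinase, had a log2FC of 0.54. These subunits too are named after their values were seen, and activity of the kinase was not measured.

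Of 11 genes for traffic in the primary cilium, 10 were tested, 4 higher and 6 lower. IFT122, a subunit of the retrograde transport complex, fell from 41.6 ± 1.02 to 11.5 ± 0.947 CPM (SD, n = 4 each; log2FC -1.85, standard error 0.06, edgeR adjusted p = 1.34e-10), and no other gene of this list passed an absolute log2FC of 1.

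Of 12 other genes known as GLI targets, 7 were tested, 2 higher and 5 lower. FOXM1, a transcription factor of dividing cells, went from 130 ± 5.61 to 40.3 ± 3.09 CPM (SD, n = 4 each, log2FC -1.68, standard error 0.06). NKX6-1, a homeodomain factor of the ventral neural tube, went from 42.9 ± 2.70 to 15.6 ± 0.96 CPM (SD, n = 4 each, log2FC -1.46, standard error 0.06). SFRP1, a secreted WNT antagonist, went the other way, from 0.255 ± 0.141 to 2.01 ± 0.117 CPM (SD, n = 4 each, log2FC 2.96, standard error 0.26), with 4 to 22 counts per untreated library. SFRP1 passed the filter only through its DOX-treated libraries, so its test could not have come out lower. MYCN, CCND1, FOXF1, NKX2-2 and ATOH1 did not pass the filter. CCND1, the cyclin D1 gene, had 2.02 to 5.18 counts untreated and 13 to 18.52 with DOX, a difference in mean log2(CPM + 0.1) of 1.30, and MYCN had 11 to 28 counts untreated and 16 to 28 with DOX. Of the 12 genes of these lists under the filter, the ligands included, the groups did not overlap in CPM for 2, CCND1 and SCUBE2. Both were higher with DOX (two-sided exact permutation p = 0.0286 each, not adjusted for the 12 genes). SCUBE2 had 4 to 17 counts untreated and 17 to 33.4 with DOX. The share without overlap among all genes under the filter was not taken, so this count is not a result about the pathway.

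**Figure D4:**
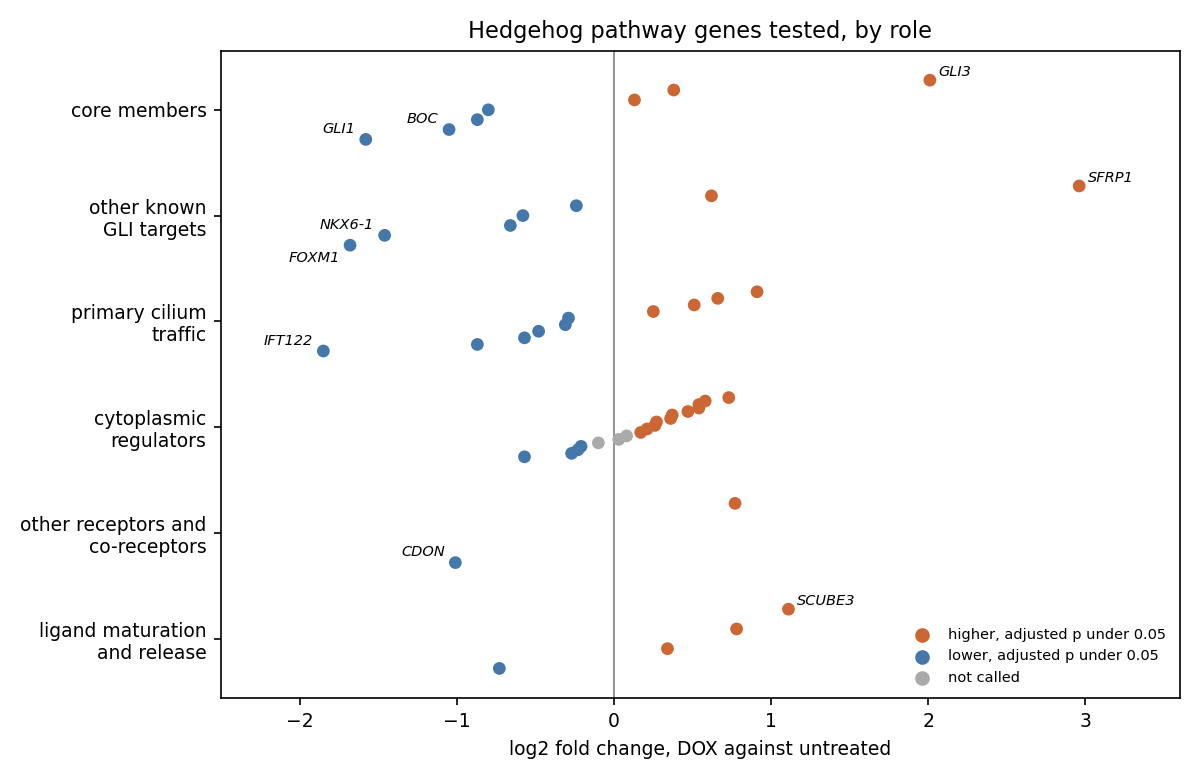
Log2 fold change of DOX against untreated (x axis) for the core genes and for 5 lists of other Hedgehog pathway genes (rows), 1 point per gene tested, with orange for higher, blue for lower and grey for not called at an adjusted p of 0.05; names are given beyond an absolute value of 1. GLI3 at 2.01 is the farthest of the core genes and SFRP1 at 2.96 the farthest of all, while the co-receptor CDON lies with GLI1 and BOC on the lower side.

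The labelled cell type was checked with marker genes of the medulloblastoma subgroups and of other cells. All 6 Group 3 markers were tested, and their summed level was 1890 to 2110 CPM untreated and 710 to 740 CPM with DOX, with 5 lower and 1 higher. Of the 5 SHH markers, which include HHIP and SFRP1, 2 were tested and both were higher, with a sum of 14.9 to 16.3 CPM untreated and 117 to 124 CPM with DOX. Nearly all of that sum was PDLIM3, a muscle and actin-associated protein, at 14.2 ± 0.530 CPM (SD, n = 4) untreated and 117 ± 2.97 CPM (SD, n = 4) with DOX, whereas ATOH1, the granule progenitor factor that defines the SHH lineage, had at most 1 count in any library. SFRP1 passed the filter only through its DOX-treated libraries, so its test could not have come out lower. HHIP did not pass the filter, and its groups overlapped. EYA1 did not pass it either, with 1 to 4 counts untreated and 7 to 15 with DOX. Of 6 Group 4 markers 3 were tested and all were higher, with a sum of 7.48 to 9.43 CPM untreated and 103 to 112 CPM with DOX. UNC5D among them passed the filter through its DOX-treated libraries, at 0.691 to 1.03 CPM untreated and 8.74 to 10.3 CPM with DOX. Of 5 WNT markers 1, TNC, was tested, and was higher, with a sum over the list of 1.22 to 2 and 15.2 to 17.7 CPM. Among all genes tested, 38.5% were called higher and 38.1% lower.

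Markers of other cells moved as follows, and their part in the results was not tested. The 5 fibroblast markers summed to 22.3 to 23.8 CPM untreated and 21.2 to 25.2 CPM with DOX, nearly all of it COL1A1, while the other 4 were under 1 CPM in the mean. Of these, DCN went from 21 to 36 counts per library to at most 1 and COL1A2 from 7 to 15 counts to at most 2, while COL3A1 went from at most 1 count to 13 to 18. The 4 endothelial and blood markers summed to 0.163 to 0.290 CPM untreated and 2.07 to 2.68 CPM with DOX. Most of the latter was CDH5, at 0 counts in every untreated library and 61 to 106 counts with DOX, while PECAM1 and PTPRC stayed under 0.1 CPM in the mean. CD68 had 4.84 to 8.84 counts untreated and 14.82 to 30.41 with DOX, without overlap. The 3 glial markers GFAP, AQP4 and MBP summed to 0.271 to 0.857 CPM untreated and 0.308 to 0.573 CPM with DOX. GFAP had 33.57 counts in untreated replicate 1, 7.23 to 8.22 in the other untreated libraries and at most 7.56 with DOX, while AQP4 and MBP went from 1 to 3 and 3.17 to 6 counts to 4 to 9 and 7 to 12, without overlap.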

How the data were processed

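RNA-Seq of polyA+ RNA from stranded, paired-end libraries was analysed in 4 untreated and 4 DOX-treated (0.25 µg/mL, 72 h) D283-OMO libraries, grouped by their labels. The methods call them independent biological replicates. The authors used Trim Galore for trimming, STAR for alignment to GRCh38 with GENCODE release 32 and RSEM for quantification. The authors deposited expected counts per gene, not normalized, in which reads that match several genes are divided among them. For PTCH1 and BOC these counts were not whole in any library. Versions of these tools are not given in the sources used here.

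Expected counts were rounded. A gene that exceeded 1 CPM in 4 or more libraries was tested with edgeR 4.0.16 in R 4.3.3 (TMM, quasi-likelihood test, no covariates, Benjamini-Hochberg adjustment over 15222 genes). The methods name edgeR's Generalized Linear Model and ask for more than 4 libraries, which was an alternative. The paper's results section instead states at least 4 libraries and a looser FDR cut-off than its methods. The standard error is the absolute log2FC over the square root of F. Single genes under the filter were compared by exact permutation on log2(CPM + 0.1). Gene names, coordinates and lengths come from GENCODE 29 on GRCh38, to which all 96 distinct genes of the lists matched. Another 3 genes first listed are not reported here, for a reason unrelated to their values, and were left out of the lists and counts. On simulated counts for 15222 genes, 99 of 100 genes changed by a log2FC of 1 and 100 of 100 changed by 2 were recovered, with 13 false calls. The simulation changed few genes and gave all genes the same spread between replicates. In the data 76.6% of genes tested were called, so its rates need not hold there.

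Counts of 2 replicates always differed by more than sampling noise (chi-square per degree of freedom 3.78 to 47.8). The named genes are the 9 members, the 3 ligands, MYC, CAD and NCL, those of the other Hedgehog pathway lists with an adjusted p under 0.05 and an absolute log2FC above 1, and the 3 genes most like GLI3, the member with the largest change. Marker genes, and any other gene outside this rule, are named to account for a count or a sum, after their values were seen. PRKACA, PRKACB and PRKAR1A are named as subunits of 1 kinase, also after their values were seen. The members were set by name, and the members, lists and tests were chosen with earlier results of these data known. Alternatives were library-size, DESeq2 1.42.0 size factor and Wald fits, edgeR's likelihood ratio test, other filters, the replicate number as a block, each library left out, and, added after seeing the data, another gene length. Reads and transcript-level abundance were not used here. Other steps used Python 3.11.15, numpy 2.4.6, pandas 2.3.3 and scipy 1.17.1.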

Additional observations from a re-analysis of the deposited data

Results flagged for a closer look

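In 18 groups of 4 libraries (each of the 9 core genes in each condition), 3 held a library far from the other 3 by Dixon's test at the 95% level, where chance gives 0.9. GLI3 was at 72.9 CPM in DOX replicate 1, SUFU at 26.2 CPM in untreated replicate 2, and BOC at 8.48 CPM in untreated replicate 2. In each of these genes the library still lay outside the range of the other condition.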

How the results depend on the processing

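Of 112 values of the tested members under 16 alternatives each, 102 kept their direction and their side of an adjusted p of 0.05, and the other 10 were all of SMO, whose adjusted p was 0.0517 with DESeq2's Wald test, 0.236 without a filter, 0.0812 with filterByExpr, 0.0507 with the replicate block and 0.0824 to 0.142 in the 6 leave-one-out fits that lost the call. It was kept without untreated replicate 3 (0.0132) and without DOX replicate 2 (0.017). The number of members past the study's thresholds, 1 in the fit reported, was 0 without a filter (GLI3 log2FC 1.99) and 0 with filterByExpr (2.0), since the values lie at the threshold, and 0 to 1 with a library left out. Members past an adjusted p of 0.05 numbered 2 to 3 higher and 4 lower with a library left out. With the replicate block GLI3 was at 2.02, and apart from SMO the block changed no member's call. Replicates with the same number had correlated deviations of 0.169, 0.153, 0.264 and -0.195, with a mean of 0.0979 against -0.0354 for other pairs. Since 1 of the 4 is below 0.1, the numbers were not taken to pair the samples, and a weak pairing was not excluded.

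Scaling by library size alone moved the median log2FC of all genes from 0.01 to 0.14 and the share of calls that were higher from 50.3 to 60.3%, while every tested member kept its direction. In the whole table the count at the study's thresholds, 1084, became 562 with more than 1 CPM in at least 5 libraries, 2097 without a filter and 1649 with filterByExpr, as fewer or more low genes were tested. With the longest transcript as length, GLI2 minus SUFU in untreated cells was -0.11 CPM per kb in place of 0.90, and GLI3 made up 18.5% of GLI counts per kb untreated and 66.5% with DOX. The low counts of HHIP and GAS1 limit what can be said of either: with a library left out, their log2 differences ranged from -0.40 to -0.16 and from 0.68 to 0.84.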
